A study of Mus musculus with 5 samples.

Results

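The Schlafen genes described here are Slfn1, Slfn2, Slfn3, Slfn4, Slfn5, Slfn8 and Slfn9, which are 7 of the 19061 gene rows in the deposited tables. They were taken by gene name. The family was picked with the difference between JIB-04 and vehicle already known, so that difference is given below as a description, with no test. All 7 lie in a cluster on mouse chromosome 11 (mm10, 82952102 to 83215154, a span of 263 kb), and all had enough reads to enter the fit across genes.

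Schlafen genes are best known from T cells and myeloid cells of the mouse, where type I interferon induces several of them. The short proteins of class I (Slfn1 and Slfn2) and the middle-sized ones of class II (Slfn3 and Slfn4) consist mainly of the shared Schlafen core, and the long ones of class III (Slfn5, Slfn8 and Slfn9) carry a helicase-like region as well. In several members the core binds or cuts RNA, transfer RNA in particular. The coding sequences in GENCODE vM21 follow these classes, with 1011 and 1134 bases for Slfn1 and Slfn2, 1551 and 1806 for Slfn3 and Slfn4, and 2652 to 2730 for Slfn5, Slfn8 and Slfn9.

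The hearts came from C57BL/6 mice, all of them carrying the calcineurin transgene MHC-CnATg, in which the myosin heavy chain promoter drives calcineurin in heart muscle cells and causes severe hypertrophy. JIB-04, an inhibitor of Jumonji histone demethylases, was given at 50 mg/kg from 4 weeks of age, 3 times a week (3 libraries), against vehicle on the same plan (2 libraries), and hearts were taken at postnatal day 158. No heart without the transgene is among the samples. In JIB-04 replicate 3 the sample title has another spelling of the genotype than its genotype label, which is the same as the others. Whether each library is a separate animal is not said outright, so errors measure the spread between libraries, which may be technical. Depth was 32152168 to 37002846 recovered reads per library, and 3 reads were worth 0.0804 to 0.0977 CPM (reads scaled by a normalised library size). Heart muscle markers were abundant in every library, with a summed level over 14 markers of 108567 to 137760 CPM in JIB-04 and 124418 to 139800 CPM in vehicle.

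The promoters are shown first, because the letters found in them differ between class III and the other classes. Each window runs from 250 bases before to 50 bases after a RefSeq start site (GRCm38.p6, the assembly of mm10), printed 5′ to 3′ on the gene's strand. All 7 genes matched the RefSeq table, and for Slfn8 the first of its windows was used. An interferon response element was searched on both strands as GAAA, any 2 bases and GAAA again, and capitals mark it in these windows of Slfn8 (chr11:83020761-83021060, minus strand), Slfn9 (chr11:82991781-82992080, minus strand) and Slfn5 (chr11:82951852-82952151, plus strand).
Slfn8: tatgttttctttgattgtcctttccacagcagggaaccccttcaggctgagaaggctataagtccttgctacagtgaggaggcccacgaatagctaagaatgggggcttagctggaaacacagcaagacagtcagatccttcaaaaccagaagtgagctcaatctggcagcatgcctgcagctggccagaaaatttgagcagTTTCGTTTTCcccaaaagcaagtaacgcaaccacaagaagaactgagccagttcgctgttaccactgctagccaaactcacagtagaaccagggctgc
Slfn9: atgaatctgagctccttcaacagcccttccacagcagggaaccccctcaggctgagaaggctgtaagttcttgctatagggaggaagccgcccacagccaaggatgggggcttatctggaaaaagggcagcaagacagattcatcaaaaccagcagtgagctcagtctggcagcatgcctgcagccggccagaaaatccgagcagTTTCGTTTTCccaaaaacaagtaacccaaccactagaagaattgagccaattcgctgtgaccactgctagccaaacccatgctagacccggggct
Slfn5: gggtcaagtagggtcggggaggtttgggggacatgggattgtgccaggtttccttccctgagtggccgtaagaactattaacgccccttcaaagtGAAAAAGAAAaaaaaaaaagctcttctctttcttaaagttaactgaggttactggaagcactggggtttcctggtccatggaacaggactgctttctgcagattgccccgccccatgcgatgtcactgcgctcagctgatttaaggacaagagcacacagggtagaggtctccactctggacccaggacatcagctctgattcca

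The match began 48 bases before the start site in Slfn8, 45 in Slfn9 and 155 in Slfn5, the last within a run of A. The Slfn8 and Slfn9 windows were 80.8% identical over their whole length, against 46.5% to 53.0% for every other pair of the 7. This element was absent from the windows of Slfn1, Slfn2, Slfn3 and Slfn4, and 3.44% of all 32851 RefSeq windows of this length held it. No window of the 7 held a gamma interferon element, searched as TTCNNNGAA (8.3% of all windows), or the PU.1 letters GAGGAAGT (3.2% of all windows).

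The class I and II windows shared other letters, CAGGAAGT, which are one form of an ETS factor site. They differ from the PU.1 letters searched above in the first base only, so the absence given there concerns that exact string. This motif was added after the sequences had been read, and 3.33% of all windows held it on either strand. It is marked by capitals in 60 bases around it from Slfn1 (chr11:83116726-83116785), Slfn2 (chr11:83065037-83065096), Slfn3 (chr11:83191250-83191309, with a match on each strand) and Slfn4 (chr11:83175093-83175152), all on the plus strand.
Slfn1: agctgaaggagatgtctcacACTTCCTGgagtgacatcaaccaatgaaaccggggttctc
Slfn2: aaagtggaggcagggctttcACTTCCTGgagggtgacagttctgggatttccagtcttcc
Slfn3: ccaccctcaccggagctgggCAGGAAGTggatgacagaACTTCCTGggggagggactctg
Slfn4: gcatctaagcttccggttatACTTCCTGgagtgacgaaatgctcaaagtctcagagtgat

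The matches lay between 42 and 74 bases before the start site. Slfn5, Slfn8 and Slfn9 did not hold this exact string in their windows. Forms of an ETS site other than it and the PU.1 letters were not searched. A match is a string of letters, and binding was not measured here.

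Slfn5 was by far the most abundant Schlafen transcript of the transgenic heart, and Slfn2 came next. Per kb of exon, the level of Slfn5 was 14.2 ± 0.46 CPM with JIB-04 (SD, n = 3) and 12.6 ± 0.10 CPM with vehicle (SD, n = 2), and that of Slfn2 was 5.53 ± 0.57 and 2.77 ± 0.43 CPM. The other 5 genes averaged between 0.393 (Slfn9) and 1.30 CPM per kb (Slfn8) with JIB-04, and between 0.167 (Slfn4) and 0.798 CPM per kb (Slfn3) with vehicle. In the JIB-04 hearts Slfn8 stood above Slfn3 in every library, while the neighbouring levels of Slfn3 (0.999), Slfn1 (0.771), Slfn4 (0.456) and Slfn9 (0.393 CPM per kb) overlapped from one to the next. In the vehicle hearts the order was different, with Slfn3 (0.798) above Slfn8 (0.574 CPM per kb) in both libraries. Below them, Slfn9 (0.286) and Slfn1 (0.248) overlapped, and Slfn4 (0.167 CPM per kb) was the lowest.

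**Figure D1:**
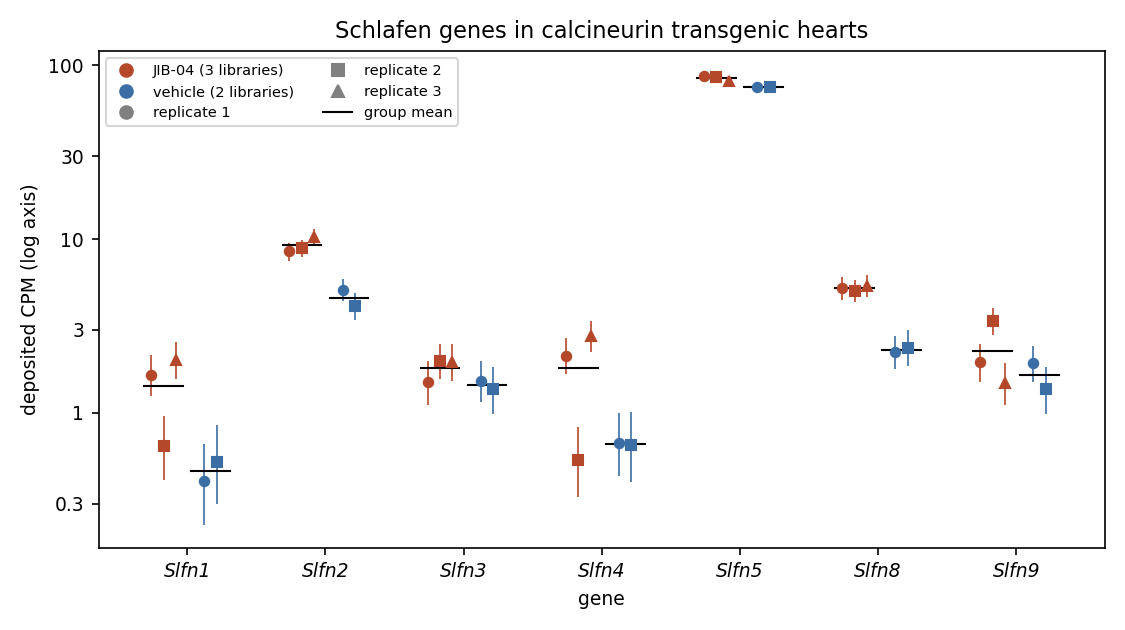
Deposited CPM of each Schlafen gene on a log axis, with JIB-04 libraries in red left of vehicle libraries in blue; symbols give the replicate, vertical lines the exact 95% Poisson interval of the reads and black bars the group mean. For Slfn8, Slfn2 and Slfn5 these intervals, which cover counting error only, do not overlap between the groups, while Slfn1 and Slfn4 are low in JIB-04 replicate 2 alone among the JIB-04 libraries.

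All 7 genes had a positive log2 fold change, JIB-04 over vehicle, where 46.9% of all 14414 genes tested did. In 4 of them, Slfn1, Slfn2, Slfn5 and Slfn8, every JIB-04 library lay above both vehicle libraries, where 10.7% of all genes did. Their median log2 fold change on the log2(CPM + 1) scale was 0.66, against -0.01 over all genes tested. As the members were chosen with this contrast in view, nothing is read from these counts. In whole hearts, more cells of a type and more RNA per cell cannot be told apart.

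In class I, Slfn2, which keeps T cells quiescent and protects transfer RNA from cleavage in mice, was at 8.49, 8.84 and 10.3 CPM in JIB-04 replicates 1 to 3, against 5.11 and 4.10 CPM in vehicle replicates 1 and 2. The groups did not overlap, and the mean was 2.00-fold higher with JIB-04, at 9.20 ± 0.95 against 4.60 ± 0.71 CPM (log2 fold change 0.87 on the log2(CPM + 1) scale). Slfn1, which slows the growth of thymocytes when overexpressed, was at 1.65, 0.643 and 2.02 CPM with JIB-04, against 0.403 and 0.521 CPM with vehicle. JIB-04 replicate 2 was far below the other JIB-04 libraries and only just above vehicle. It held 24 reads on Slfn1, with a 95% interval of 0.412 to 0.957 CPM that began just above the lower vehicle value and took in the higher one. This interval, like the others given here, is an exact Poisson one and covers counting error only. The Slfn1 mean was 3.11-fold higher with JIB-04, at 1.44 ± 0.71 against 0.462 ± 0.083 CPM.

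In class II, Slfn4, an interferon-induced gene of mouse myeloid cells, was at 2.13, 0.536 and 2.76 CPM in JIB-04 replicates 1 to 3, against 0.672 and 0.651 CPM with vehicle. JIB-04 replicate 2 was below both vehicle libraries, with 20 reads and an interval of 0.327 to 0.827 CPM, so the groups overlapped. The counting intervals of the other JIB-04 libraries began at 1.66 and 2.23 CPM, and those of vehicle ended at 0.992 and 1.01 CPM. The Slfn4 means were 1.81 ± 1.14 CPM with JIB-04 and 0.662 ± 0.015 CPM with vehicle. Slfn3, known from mouse T cells and gut epithelium, was at 1.5, 1.98 and 1.96 CPM with JIB-04, against 1.53 and 1.37 CPM with vehicle. Its groups overlapped through JIB-04 replicate 1, and its mean was 1.25-fold higher with JIB-04.

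In class III, Slfn8, known from mouse lymphocytes and models of autoimmunity, was at 5.22, 5.01 and 5.40 CPM with JIB-04 (174, 187 and 190 reads), against 2.23 and 2.38 CPM with vehicle (83 and 73 reads). The libraries of each group lay close together, the groups did not overlap, and the mean was 2.26-fold higher with JIB-04, at 5.21 ± 0.19 against 2.30 ± 0.10 CPM (log2 fold change 0.91). Slfn5, a nuclear protein whose human counterpart restrains interferon response genes, was at 86.7, 86.0 and 81.6 CPM with JIB-04, against 75.5 and 74.6 CPM with vehicle. All 3 JIB-04 libraries were above vehicle, by a fold of 1.129 in the means (84.7 ± 2.8 against 75.1 ± 0.6 CPM). The counting intervals began at 78.6 CPM or higher with JIB-04 and ended at 78.3 CPM or lower with vehicle, which does not take in the spread between libraries.

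Slfn9, the near neighbour of Slfn8, had a different pattern. It was at 1.95, 3.38 and 1.48 CPM with JIB-04, against 1.93 and 1.37 CPM with vehicle. JIB-04 replicate 2 alone was high, and the others lay within the vehicle range or just above it. Without JIB-04 replicate 2, the log2 fold change of Slfn9 was 0.04, against 0.27 with it. The CPM ratio of Slfn8 to Slfn9 was 2.68, 1.48 and 3.65 with JIB-04 and 1.15 and 1.74 with vehicle, so it overlapped between the groups.

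Some of the reads on these genes could come from a close copy. Of all windows of 50 bases in the RefSeq-matched GENCODE transcripts, 9.59% of those in Slfn8 also occurred in Slfn9 and 10.4% in the pseudogene Slfn10-ps, and 14.3% of those in Slfn3 also occurred in Slfn4. At 100 bases the shares were 1.22% for Slfn8 with Slfn9 and 2.56% with Slfn10-ps. The share found in any other gene was 23.7% for Slfn3, 11.0% for Slfn4, 11.4% for Slfn9, 15% for Slfn8, 4.27% for Slfn2, 3.59% for Slfn5 and 0.606% for Slfn1. How the authors' counting treated reads that match several places is not given in the sources used here, so the split between Slfn8 and Slfn9 and between Slfn3 and Slfn4 is uncertain. The sum of Slfn8 and Slfn9 does not depend on their split, and it was 7.17, 8.38 and 6.88 CPM with JIB-04, against 4.17 and 3.74 CPM with vehicle, with no overlap.

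Together the 7 genes held 108, 106 and 105 CPM in JIB-04 replicates 1 to 3, against 87.4 and 85.0 CPM in vehicle, and without Slfn5 they held 20.9, 20.4 and 23.9 CPM, against 11.9 and 10.4 CPM. Slfn5 took a smaller share of the family's reads with JIB-04, at 80.5%, 80.8% and 77.3%, against 86.4% and 87.8% with vehicle. Slfn2 had 7.89%, 8.31% and 9.75% of the reads with JIB-04, against 5.84% and 4.83% with vehicle, and Slfn8 had 4.85%, 4.71% and 5.12%, against 2.55% and 2.80%. These are shares of reads, in which longer transcripts count for more.

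**Figure D2:**
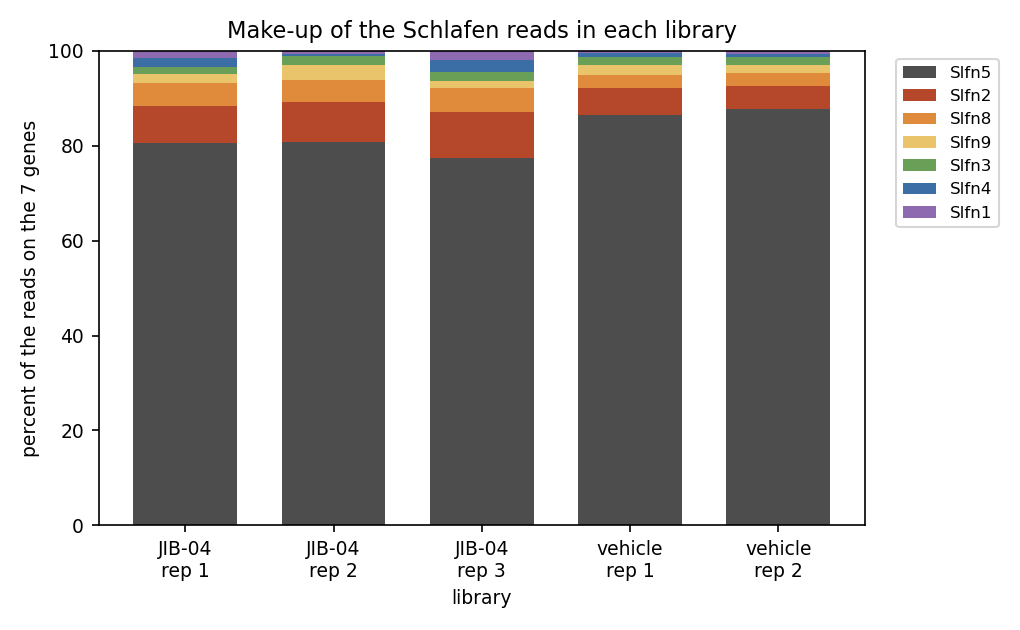
Percent of the reads on the 7 Schlafen genes that each gene took, as bars stacked to 100% for the 3 JIB-04 libraries and then the 2 vehicle libraries. Slfn5 takes 77.3% to 80.8% with JIB-04 and 86.4% to 87.8% with vehicle.

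The JIB-04 hearts did not move as one across the family. Slfn1 and Slfn4 were low in JIB-04 replicate 2 and high in the other libraries of the group, while Slfn9 was high in that library alone. Set against the vehicle mean in log2(CPM + 1) units, JIB-04 replicate 2 was at 0.17 for Slfn1, -0.11 for Slfn4 and 0.73 for Slfn9. JIB-04 replicate 3 was at 1.046, 1.18 and -0.09 for the same genes. Without JIB-04 replicate 2, the log2 fold change of Slfn4 was 1.045, against 0.66 with it, and without JIB-04 replicate 3 it was 0.40. Slfn8 (0.86 to 0.95) and Slfn5 (0.12 to 0.21) varied little over the JIB-04 libraries. Among the 21 pairs of members, the centred profiles over the 5 libraries were closest for Slfn3 with Slfn5, Slfn2 with Slfn8 and Slfn1 with Slfn4 (root mean square differences of 0.11, 0.12 and 0.15 log2 units), and farthest for Slfn4 with Slfn9 (0.73). This measure is small for any pair of genes that vary little, even where their order over the libraries differs. In JIB-04 replicates 1 to 3, Slfn3 was at 0.03, 0.28 and 0.27, and Slfn5 at 0.21, 0.19 and 0.12.

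**Figure D3:**
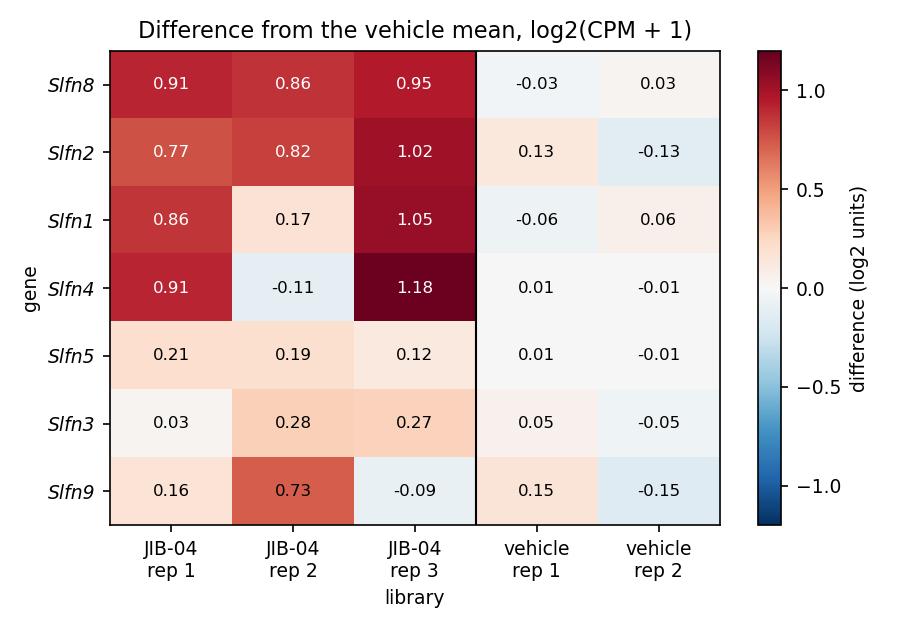
Difference of each library from the vehicle mean in log2(CPM + 1), with a row per gene and JIB-04 libraries left of the line. Slfn8 and Slfn2 are high in all 3 JIB-04 libraries, Slfn1 and Slfn4 at 0.17 and -0.11 in JIB-04 replicate 2, and Slfn9 high in that library only.

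The other Schlafen rows were at or near the limit of detection and were not tested. Slfn10-ps, a pseudogene inside the cluster, had 7, 6 and 9 reads with JIB-04 against 2 and 3 reads with vehicle. Slfn14, which encodes a ribosome-bound endoribonuclease tied to platelet disease in humans, had 1 read in each JIB-04 library, against 4 and 0 reads with vehicle. Taking 3 reads as the limit that a count of 0 allows, the limit was 0.0977 CPM in that library. Slfnl1, on chromosome 4, had at most 1 read with JIB-04 and 3 with vehicle, and the antisense gene Slfn5os had 1 to 4 reads with JIB-04 and 1 or 0 with vehicle. Slfn5os overlaps Slfn5, which had 2871 to 3210 reads with JIB-04 and 2292 or 2809 with vehicle. The library kit marks strand, but whether the counting used it is not given.

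The genes beside the cluster, which played no part in choosing the members, did not pass the test. Of the nearest 10 rows on each side, 14 were tested, and limma called 0 of them (0% of all genes tested were called). An unadjusted limma p under 0.05 was found for 1 of the 14, against 928 of all 14414 genes. edgeR, limma-voom and DESeq2 called 0 of the 14. Their log2 fold changes ran from -0.24 to 0.35, with a median of 0.04, 8 positive and 6 negative. In 2 every JIB-04 library was above both vehicle libraries (10.7% of all genes), and in 2 every one was below (12% of all genes). Unc45b, a myosin chaperone just before Slfn5, was at 269, 221 and 221 CPM with JIB-04, against 246 and 249 CPM with vehicle (log2 fold change -0.07, SE 0.10), with overlapping groups. Ap2b1, a clathrin adaptor subunit past the far end, was at 87.8, 99.9 and 89.9 CPM, against 84.7 and 82.2 CPM with vehicle (0.15, SE 0.07, limma adjusted p = 0.819). Rasl10b, a small GTPase, had the smallest p of the 14, at 59.99, 57.1 and 61.0 CPM against 66.5 and 74.6 CPM with vehicle (-0.24, SE 0.07, limma adjusted p = 0.690). Tmem132e, the flanking gene farthest from the cluster on its side, had the highest value, 0.35 (SE 0.16), at 1.47, 2.30 and 1.82 CPM against 1.02 and 1.47 CPM. The difference between the members and these genes was not tested, since the members were chosen on this contrast.

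**Figure D4:**
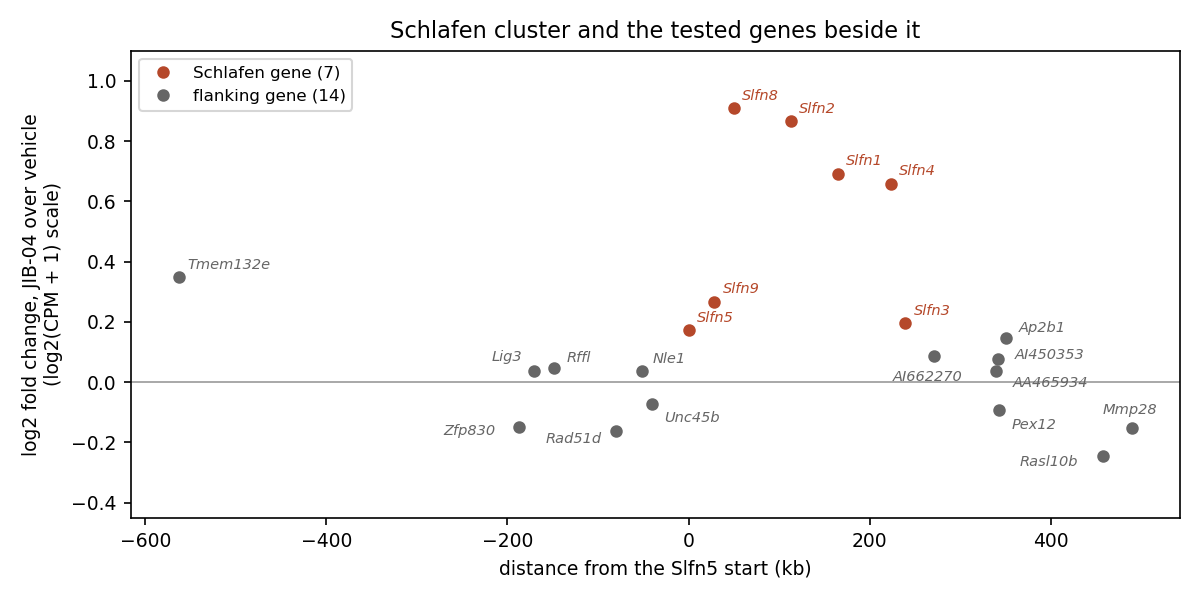
Log2 fold change of JIB-04 over vehicle on the log2(CPM + 1) scale against the distance of each gene's start from that of Slfn5 in kb, for the 7 Schlafen genes (red) and the 14 tested flanking genes (grey). The Schlafen genes lie between 0.17 and 0.91 and the flanking genes between -0.24 and 0.35.

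Interferon response genes, which share their best known inducer with several Schlafen genes, had mostly positive values too. The 12 lists described from here on were chosen with earlier results of these data known, so their counts are a description only. Calls are those of limma unless another tool is named. Of 40 interferon stimulated genes, limma called 0 and all had positive values, with a median log2 fold change of 0.49, where 46.9% of all genes were positive. In 33 of them every JIB-04 library was above both vehicle libraries, against 10.7% of all genes. Zbp1, a nucleic acid sensor, was at 3.00, 2.79 and 3.13 CPM with JIB-04, against 1.07 and 1.01 CPM with vehicle (log2 fold change 0.96, SE 0.11, limma adjusted p = 0.316). Of 25 genes for interferon receptors, kinases and transcription factors, 19 had positive values (median 0.14, 0 called), with the transcription factor gene Irf7 at 17.4, 13.9 and 12.4 CPM against 9.67 and 6.45 CPM with vehicle (0.79, SE 0.19) and the receptor gene Ifnar1 at 38.8, 44.9 and 42.9 against 39.2 and 40.5 CPM (0.08, SE 0.08). Of 19 genes for other factors that act on RNA or restrict translation, 17 had positive values (median 0.15, 0 called). Eif2ak2, which encodes the kinase PKR, was at 18.8, 19.7 and 17.0 CPM against 15.9 and 15.7 CPM with vehicle (0.22, SE 0.09).

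General leukocyte and macrophage markers had mostly positive values, and limma called none. DESeq2 called 5 of the 14 leukocyte markers and 7 of the 24 macrophage and monocyte markers, where it called 0.583% of all genes. For all 14 general leukocyte markers the lowest JIB-04 library exceeded both vehicle libraries, where 10.7% of all genes did so, with a summed level of 156 to 238 CPM with JIB-04 and 94.8 to 120 CPM with vehicle (median log2 fold change 0.72, 0 called). Of 24 macrophage and monocyte markers, 23 had positive values (46.9% of all genes) and 16 had no JIB-04 library within or below the vehicle range (10.7% of all genes; median 0.66, 0 called), with a summed level of 454 to 722 CPM with JIB-04 and 326 to 444 CPM with vehicle. The median of the macrophage markers over the vehicle mean was 0.30 in JIB-04 replicate 1, 0.73 in replicate 2 and 0.95 in replicate 3 on the log2(CPM + 1) scale. In the same order of libraries, Slfn2 was at 0.77, 0.82 and 1.02, Slfn8 at 0.91, 0.86 and 0.95, and Slfn4 at 0.91, -0.11 and 1.18. Slfn2 thus had the same order as the macrophage median, and Slfn8 and Slfn4 had their lowest value in replicate 2. The interferon stimulated median ran the other way, at 0.52, 0.47 and 0.35, and Slfn5, at 0.21, 0.19 and 0.12, had that order. These orders rest on 3 libraries and were not tested. For Slfn2, Slfn5 and Slfn8 the counting intervals of the JIB-04 libraries overlapped one another, so counting error alone could change their orders. Those of Slfn8 were 4.47 to 6.05, 4.32 to 5.78 and 4.66 to 6.22 CPM. Only for Slfn4 did the interval of replicate 2 lie below those of replicates 1 and 3.

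Ptprc, which encodes the pan-leukocyte antigen CD45, was at 13.3, 14.3 and 17.5 CPM with JIB-04, against 7.63 and 7.29 CPM with vehicle (log2 fold change 0.91, SE 0.13, limma adjusted p = 0.371). The CPM ratio of Slfn2 to Ptprc was 0.639, 0.617 and 0.587 with JIB-04 and 0.669 and 0.563 with vehicle, and that of Slfn8 to Ptprc was 0.393, 0.3495 and 0.308 against 0.292 and 0.326, so both ratios overlapped between the groups. That of Slfn5 to Ptprc was lower with JIB-04, at 6.52, 6.00 and 4.65, against 9.89 and 10.2 with vehicle. The part of leukocyte content in the Schlafen values was not tested.

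Most lymphocyte and neutrophil markers had low levels. Of 21 T and NK cell markers, 19 averaged under 1 CPM, and 14 could be tested (median 0.17, 0 called). Of the 14, 12 were positive (46.9% of all genes). In 4 every JIB-04 library was above vehicle (10.7% of all genes), and in 2 every one was below (12% of all genes). Over all 21 markers the summed level was 25.1 to 37.5 CPM with JIB-04 and 37.0 to 38.6 CPM with vehicle. Most of it came from Cd28, at 27.1, 15.9 and 22.6 CPM against 29.5 and 31.9 CPM. Cd28 was 1 of the 2 markers with every JIB-04 library below vehicle, so the sum mainly follows Cd28 and not the other markers. Cd3g was at 0.540, 0.429 and 0.739 CPM against 0.242 and 0.293 CPM with vehicle. Cd3d, at 0.390, 0.241 and 0.256 CPM against 0.215 and 0.293 CPM, overlapped between the groups. Of 11 B cell markers with a row, 10 were under 1 CPM, with a summed level of 6.46 to 9.39 CPM with JIB-04 and 4.49 to 6.21 CPM with vehicle (9 tested, all positive, median 0.18, 0 called). Of 14 neutrophil markers 9 were under 1 CPM, among them Elane and Mpo, which had no read in any library. Csf3r, the receptor for granulocyte colony-stimulating factor, was at 3.24, 2.60 and 6.36 CPM with JIB-04, against 2.39 and 2.70 CPM with vehicle, highest in JIB-04 replicate 3. Over the 14 markers the summed level was 12.4, 12.4 and 34.0 CPM in JIB-04 replicates 1 to 3, against 12.3 and 14.03 CPM with vehicle (7 tested, 6 positive, median 0.23, 0 called).

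Endothelial markers had a median log2 fold change of -0.01 (5 of 12 positive, 0 called) and summed levels of 1396 to 1878 CPM with JIB-04 and 1582 to 1691 CPM with vehicle. Among all genes tested 46.9% were positive, the share to set beside the count of positive markers in each list here. Fibroblast markers had a median of 0.19 (11 of 12 positive, 0 called by limma and 1 by DESeq2), with sums of 3591 to 4006 CPM against 3492 to 3591 CPM with vehicle. In 3 of the 12 fibroblast markers every JIB-04 library was above vehicle, where 10.7% of all genes were. Cardiomyocyte markers had a median of -0.13 (3 of 14 positive, 0 called). In 3 of them every JIB-04 library was below vehicle, where 12% of all genes were. Megakaryocyte and platelet markers, beside the near absence of Slfn14, had a median of -0.0043 over 7 tested (3 positive, 0 called), with sums of 31.4 to 44.2 CPM against 36.8 to 37.5 CPM with vehicle. Over all 12 lists, 196 genes were tested, and limma called 0 (79 at an unadjusted p under 0.05, against 928 of all 14414 genes). edgeR and limma-voom also called 0 of them, and DESeq2 called 25, where it called 0.583% of all genes. Of the 25, 10 were interferon stimulated genes, 7 macrophage markers and 5 leukocyte markers. A further 2 were genes for interferon receptors, kinases or transcription factors, and 1 was a fibroblast marker. As the lists were chosen with earlier results of these data known, nothing is read from these counts.

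**Figure D5:**
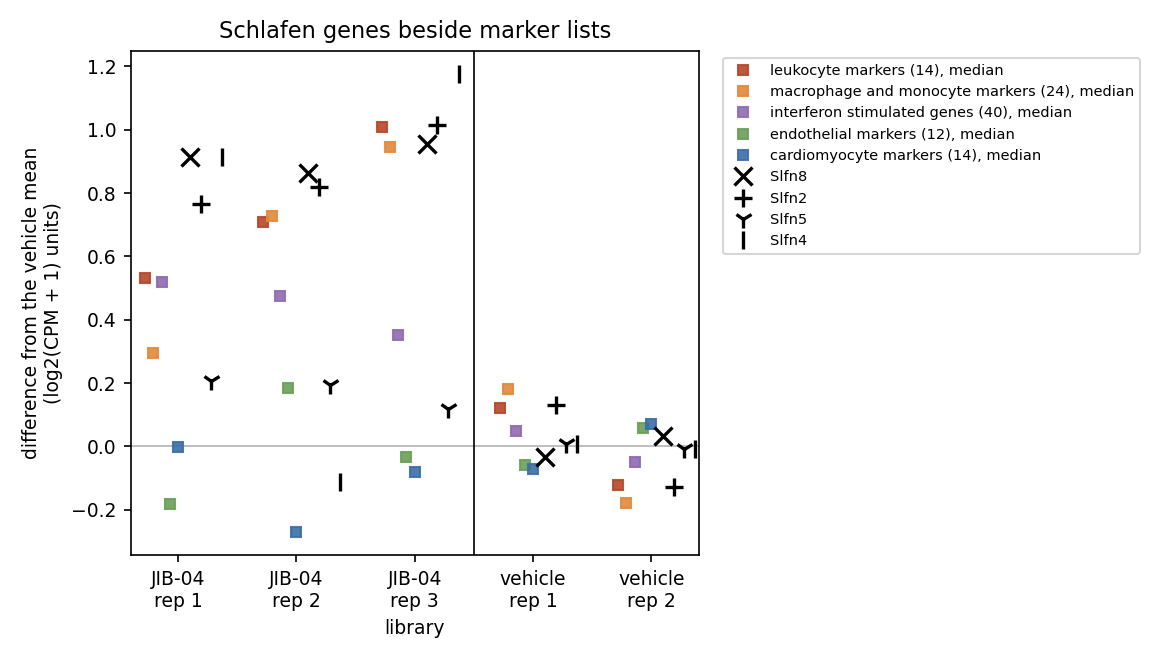
Difference from the vehicle mean in log2(CPM + 1) units for Slfn8, Slfn2, Slfn5 and Slfn4 (black symbols) and the median of 5 marker lists (coloured squares) in each library, JIB-04 left of vehicle, with symbols set apart sideways within a library. Slfn8 stays at 0.86 to 0.95 over the JIB-04 libraries while the macrophage median is at 0.30, 0.73 and 0.95.

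The genes with the profiles most like those of the members over the 5 libraries were sought among 12838 genes of at least 1 CPM, as a description with no test. The members were chosen with the JIB-04 contrast in view, so genes with a like profile share it by construction. Nothing is read from their being higher with JIB-04. Nearest to Slfn8 were Zbp1, Slamf9, Evi2a, Ptprc and Aoah, at root mean square differences of 0.04 to 0.11 log2 units. Nearest to Slfn2 were Evi2a, Siglec1, Evi2a-evi2b, Pik3ap1 and Phf11b (0.06 to 0.07). Slfn5 lay nearest to A530054K11Rik, Tagap1, Cbfb, Lrrfip1 and Hook2 (0.01 to 0.02), none of which is on the lists above. As Slfn5 varied little over the libraries, these small differences say little about a shared order. The median profile of all 7 was nearest to Ifi47, Arhgap30, Lcp2, Psmb8 and Slamf9 (0.03 to 0.08). Ifi47, an interferon-inducible GTPase, was at 4.41 ± 0.41 CPM with JIB-04 (SD, n = 3) and 2.56 ± 0.01 CPM with vehicle (SD, n = 2).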

How the data were processed

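RNA extracted with Trizol was made into stranded mRNA libraries, per the labels' protocols. The submitters' processing notes give the build mm10 and list, with no roles, TopHat2 2.0.12, featureCounts, Subread, edgeR, Picard 1.127 and FastQC 0.11.2. The deposited tables hold 1 column headed CPM per library. It sums to 954981 to 1046902 and was treated as a normalised signal, deposited by the authors after scaling by a library size that is not its plain total. All values (100%) were whole multiples of the value of 1 read within 0.01, so whole reads were recovered. The blank row of each table was left out. Starts in the files count from 0 and are printed counting from 1.

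JIB-04 was compared with vehicle by limma 3.58.1 (R 4.3.3, mean-variance trend) on log2(CPM + 1), which understates folds of low genes. It ran over the 14414 genes kept by filterByExpr (minimum 10 reads, 15 in total), with Benjamini-Hochberg adjustment over all of them and a threshold of 0.05. edgeR 4.0.16, limma-voom and DESeq2 1.42.0 on recovered reads, other scalings, pseudocounts and filters, a replicate block and leaving out each library were alternatives. The limma and edgeR fits were also run on simulated data. The simulated folds were larger than those of the members, so that run does not show the power at smaller folds.

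The members, the 12 lists and the tests were chosen with earlier results of these data known. Genes named are all members, other Slfn rows, 10 rows on each side of the cluster and, from each list, the first marker or those with the smallest p, of which only some are printed. Lists are described by counts and medians. Cd28, Elane and Mpo were singled out after their values were seen. Exon lengths, coding lengths and shared windows come from GENCODE vM21 transcripts with a RefSeq match, and promoters from RefSeq.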

Additional observations from a re-analysis of the deposited data

How the results depend on the processing

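With 2 and 3 libraries, precision is set mainly by their number, and for members with few reads (Slfn1, Slfn3 and Slfn4 in every library, Slfn8 and Slfn9 in some) also by counting. The log2 fold change of each of the 7 members was positive in all 14 alternatives run for it. Among these, the replicate block and the fit without JIB-04 replicate 3 gave the same values, so they count as 1 check. It ranged from 0.88 to 1.19 for Slfn8, 0.74 to 1.01 for Slfn2, 0.16 to 0.22 for Slfn5, 0.51 to 1.65 for Slfn1, 0.40 to 1.46 for Slfn4, 0.15 to 0.33 for Slfn3 and 0.04 to 0.47 for Slfn9. For Slfn1 and Slfn4, the upper ends come from DESeq2, and a pseudocount of 0.1 gave 1.33 and 1.07, where the main value was 0.69 and 0.66. JIB-04 replicate 2 gave Slfn9 its lowest value when left out, and JIB-04 replicate 3 gave Slfn1 and Slfn4 theirs. The summed CPM of the members, 0.31 higher on the log2 scale, was 0.36 higher with scaling by total reads, a setting that also moved the median of all genes to 0.04, and 0.29 to 0.32 with each library left out. With the replicate number as a block it was 0.31 and limma called 0 genes. Only JIB-04 has a replicate 3, so for the fold changes this block amounts to leaving that library out. Deviations from the group mean had correlations of -0.13 between libraries of the same number, for both numbers. The 2 vehicle libraries mirror each other in such deviations, so these are not separate checks and cannot settle whether the numbers are pairs. The numbers were not taken as pairs. limma called 0 of 14414 genes (928 at an unadjusted p under 0.05), edgeR 0 (946) and limma-voom 0 (872), while DESeq2 called 84 (68 higher and 16 lower with JIB-04), 25 of them on the lists. The cause was not tested. Over the fits with 1 library left out, limma called between 0 and 29 genes, and between 0 and 3 on the lists, the highest without JIB-04 replicate 1. No alternative called a flanking gene.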
